A study of Homo sapiens with 12 samples.

Results

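MYC, its partner MAX and genes of ribosome biogenesis and of nucleotide and polyamine synthesis, 36 genes in all, were followed in the lung adenocarcinoma lines CL1-5 and CL1-0. Their messenger RNA was measured on 12 Affymetrix arrays in 4 groups of 3, each labelled as biological replicates. The groups were CL1-5 cells under a direct-current electric field of 300 mV/mm, CL1-5 cells without a field (0 mV/mm), CL1-0 cells under the same field and CL1-0 cells without it. All cells had been cultured overnight in a microfluidic chip with serum, spent 2 h in serum-free medium with or without the field, and were then detached with trypsin. CL1-5 and CL1-0 are non-small cell lung cancer lines derived from the same tumour, CL1-5 being known as the more invasive, and each stands for its type by 1 line only. The design asks how the lines differ and how each responds to the field.

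MYC is a transcription factor that binds DNA as a pair with MAX, most readily at the E-box CACGTG, and it is known for driving cell growth. Many of its known targets make ribosomes. RNA polymerase I transcribes the ribosomal RNA genes in the nucleolus, small nucleolar ribonucleoproteins (snoRNPs) guide the modification and cutting of the transcript, and large sets of assembly factors fold and trim the small and the large subunit. In lung and other carcinomas this programme is generally active, since dividing cells must copy their ribosomes.

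Each gene was represented by 1 probe set, that with the highest mean log2 signal among those annotated to its symbol alone. Of the 36 genes, 32 had such a probe set. NOP56 and BOP1 were covered only by probe sets that carry several symbols, the annotation used names none for GNL3 and EBNA1BP2, and these 4 were not analysed here. All 32 lay above the median of the array on all 12 arrays, so none entered through 1 group alone. They are among 13882 genes tested, of 19775 with a symbol of their own. Levels are log2 array signals, which can be compared between samples for 1 gene but not between genes.

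All arrays had been scaled to the same trimmed mean (500.07 to 500.08), so a difference in total RNA per cell would not show, and fewer expressing cells cannot be told apart from less RNA per cell. Replicate 1 of each group stood apart from the others. Its 4 arrays read 7.02 to 17.7 for dap, a bacterial poly-A control spiked into the labelling reaction, against 906 to 1224 on the other 8, and 30.0 to 92.7 for the 18S ribosomal RNA probe sets against 2983 to 4649. Each group held 1 such array. Arrays with the same replicate number also deviated together, most strongly for replicate 1 and not in every comparison for replicate 3. For the lines a fit with the replicate number as a block is therefore given beside the calls and counts it alters. Whether these numbers mark a batch or paired cultures cannot be told apart. The labels name biological replicates but do not state separate cultures, so p-values measure the spread between these samples. Of 10 epithelial and lung markers 5 lay above the array median on all arrays, among them KRT8, KRT18 and the lung lineage factor NKX2-1. EPCAM averaged 4.86 and 5.18 in CL1-5 with and without the field, against 9.28 and 9.14 in CL1-0. CDH1 likewise averaged 5.90 and 5.77, against 9.51 and 9.22. KRT8 and KRT18 went the other way, at 11.70 and 11.68 against 10.28 and 9.53, and at 14.20 and 14.03 against 13.31 and 12.69. KRT19 was above the array median on 2 arrays. Of 6 leukocyte and 6 endothelial markers, 4 each were below it on all 12, CDH5 and VWF among the endothelial ones, and of 6 fibroblast markers 1, COL1A1, was above it on all. Some of these markers moved with the line. The endothelial adhesion molecule PECAM1, above the array median on all 12 arrays, averaged 8.84 and 8.80 in CL1-5 with and without the field, against 6.90 and 6.74 in CL1-0 (adjusted p = 0.0121 in the limma fit over all genes). Both endothelial markers tested were called higher in CL1-5, the other being KDR at 1.15 ± 0.36, and of 4 fibroblast markers tested PDGFRA was higher (3.77 ± 0.49). Of 2 leukocyte markers tested CD2 was lower (−1.45 ± 0.40). Among 9 epithelial and lung markers tested 2 were lower and 1 higher in CL1-5. Over all genes 17.0% were called lower and 15.3% higher. KDR, PDGFRA and CD2 were above the array median on 6, 6 and 4 of the 12 arrays, and 3 arrays sufficed to be tested. They may thus have entered through the line where they were higher. Their low values in the other line are uncertain, with PDGFRA at 2.86 and 3.99 in CL1-0 with and without the field. The summed linear signal of the endothelial list ran from 379 to 1796 and 477 to 1261 in CL1-5 with and without the field, against 205 to 256 and 194 to 231 in CL1-0. That of the fibroblast list ran from 517 to 598 and 560 to 645 in CL1-5, against 454 to 489 and 417 to 628 in CL1-0, and that of the leukocyte list from 139 to 198 and 113 to 245 in CL1-5, against 188 to 286 and 227 to 321 in CL1-0. The sum of the epithelial and lung list ran from 19069 to 32982 and 16907 to 25822 in CL1-5, against 5078 to 25091 and 3751 to 19133 in CL1-0. The part of all these markers in the line differences was not tested.

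Most of the line differences called in these genes were in the lower direction. Averaged over the field, 15 of the 32 were lower in CL1-5 than in CL1-0 and 1, MAX, was higher, at an adjusted p below 0.05 in a limma fit to all genes. Over all genes tested 17.0% were called lower and 15.3% higher. The median log2 fold change of the 32 was −0.52, against −0.06 over all genes. Of the 32 values 6 were above 0, where 46.2% of all genes were. The 6 CL1-5 arrays did not overlap with the 6 CL1-0 arrays for 12 genes in the lower direction and 1 in the higher, where 11.6% and 10.8% of all genes separated so. The largest differences among the genes so called were in LYAR, ODC1, POLR1B, NOLC1 and NOP2, lower by 3.22-, 2.51-, 2.31-, 2.13- and 2.09-fold.

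These counts take the 6 arrays of a line as independent. With same-numbered arrays of a line first averaged, 3 values against 3, a setting chosen after seeing the data, 8 genes were called lower (LYAR, NOP2, POLR1B, NOLC1, NOB1, MRTO4, ODC1 and NOP16; 9.27% of all genes) and MAX higher (9.52%). With the block added to that setting, 18 were lower and 2 higher (21.9% and 18.7% of all genes). In the fit with the replicate block 20 were called lower and 2 higher, where 27.1% and 23.2% of all genes were. On the 8 arrays with spike-in signal alone, 17 were lower and 3 higher, against 24.5% and 20.9% of all genes, and the median of the 32 was −0.37.

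**Figure D1:**
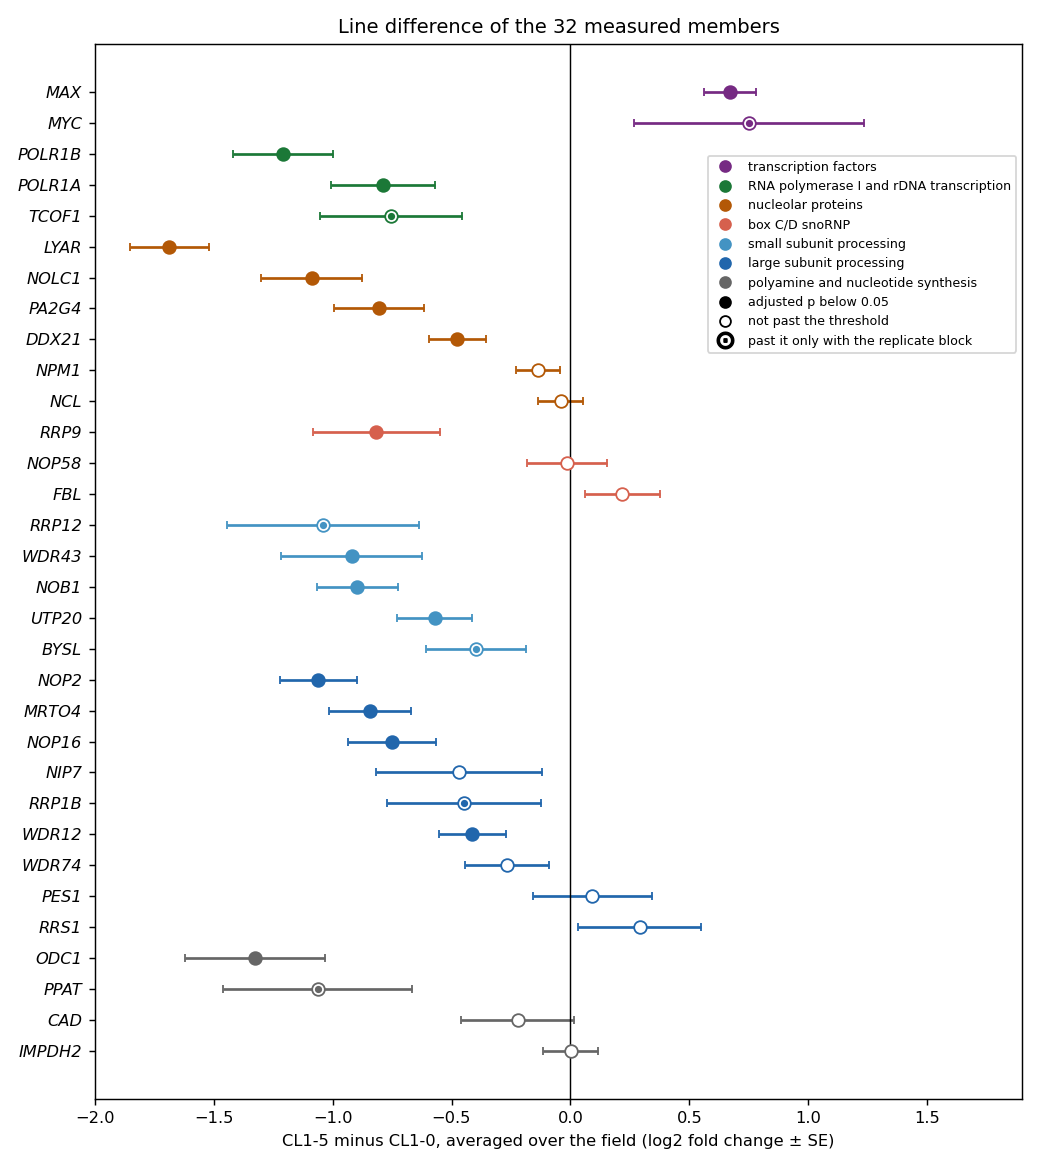
Log2 fold change of CL1-5 minus CL1-0, averaged over the field, with its SE for each of the 32 measured genes, ordered and coloured by role; filled points passed an adjusted p of 0.05 and open points with a dot passed only with the replicate block. The 15 genes called lower spread over 6 roles, from −1.69 for LYAR to −0.41 for WDR12, while MAX and MYC lie at 0.67 and 0.75.

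MYC itself was not lower. Its signal was 14.50, 12.08 and 12.48 in replicates 1 to 3 of CL1-5 with the field and 13.63, 12.08 and 12.27 in CL1-5 without it, against 13.08, 11.43 and 11.94 in CL1-0 with the field and 13.07, 11.28 and 11.72 in CL1-0 without it. Replicate 1 was the highest array in each of the 4 groups, and the groups of the lines overlap. Within every same-numbered pair CL1-5 was above CL1-0, by 0.54 to 1.42 with the field and 0.55 to 0.80 without it. The averaged difference of 0.75 ± 0.48 (SE, 6 arrays a line) gave an adjusted p of 0.271, and 0.000209 with the replicate block. Without the replicate 1 arrays it was 0.63 (adjusted p = 0.00626).

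MAX, the partner that MYC needs to bind DNA, rose in CL1-5. It read 12.40, 12.20 and 12.18 in CL1-5 with the field and 12.22, 12.21 and 12.08 in CL1-5 without it, against 11.49, 11.73 and 11.53 in CL1-0 with the field and 11.55, 11.54 and 11.44 in CL1-0 without it. Every CL1-5 array lay above every CL1-0 array. The difference was 0.67 ± 0.11 (adjusted p = 0.000563), or 1.59-fold, with 0.68 ± 0.15 with the field and 0.66 ± 0.15 without it. Of the 4 other MAX probe sets, 3 gave 0.43 to 0.87 and the dimmest gave 0.03.

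**Figure D2:**
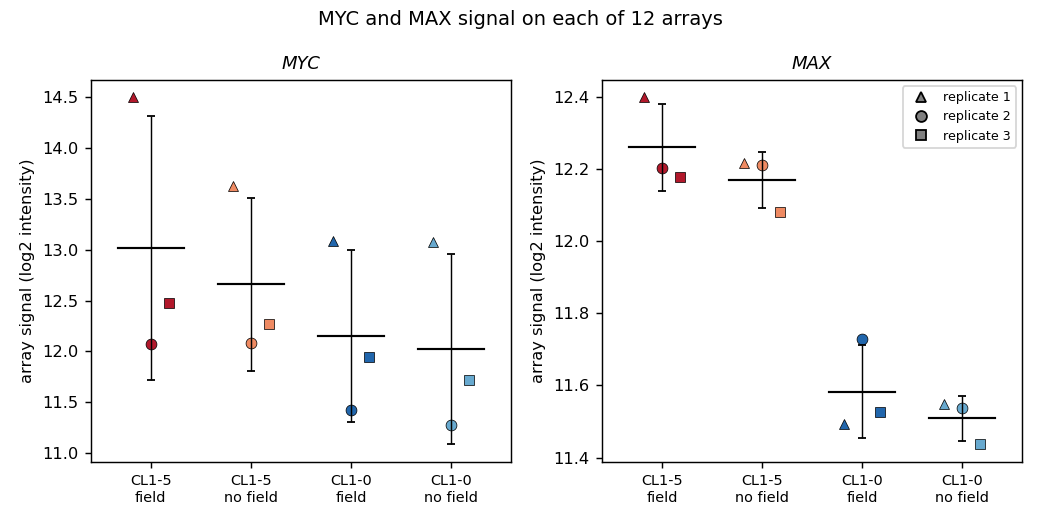
Log2 array signal of MYC (left) and MAX (right) on each of the 12 arrays, by group, with the group mean (line) and SD (bar), and the replicate number as the symbol. Replicate 1 of each group is the highest for MYC (13.07 to 14.50), and for MAX the lowest CL1-5 array (12.08) lies above the highest CL1-0 array (11.73).

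The E-box that the MYC and MAX pair recognises was looked for in the promoters of these genes, in the 250 bases before each transcript start in RefSeq (GRCh38.p14). The motif CACGTG reads the same on both strands. The table held 27 of the 36 genes, and 6 of them (22.2%) had it before at least 1 start, against 11.1% of the 11170 genes tested that the table holds and 7.73% of all 27305 genes in it. By start windows it was 6 of 36 (16.7%), against 6.34% of 35116. Those 35116 windows include genes that were not tested, so that share is not a like background. Of 14 genes called lower that the table holds, 4 had it (28.6%; LYAR, ODC1, DDX21 and UTP20). Of 9 not called, PPAT had it (11.1%), and the share of the genes tested was 11.1%. The remaining match was EBNA1BP2, among 3 genes that the table holds but that were not tested. The 22.2% thus includes genes outside those tested. The windows of the 5 tested genes with a match are shown to set the motif beside its gene. The E-box is in capitals, and the distance is from its first base to the start. That of LYAR is chr4:4290068-4290097 on the minus strand, 64 bases before the later of 2 starts, and that of ODC1 is chr2:10448024-10448053 on the minus strand, 29 bases before the later of 2 starts. DDX21 has it at chr10:68956604-68956633 on the plus strand, 31 bases before the later of 2 starts, UTP20 at chr12:101280083-101280104 on the plus strand, 10 bases before its start, and PPAT at chr4:56435780-56435809 on the minus strand, 182 bases before its start.
LYAR: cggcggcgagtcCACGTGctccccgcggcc
ODC1: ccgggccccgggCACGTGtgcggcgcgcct
DDX21: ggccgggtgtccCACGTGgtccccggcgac
UTP20: cttttttccgtcCACGTGaccc
PPAT: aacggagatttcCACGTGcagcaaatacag
A match describes the sequence and does not show binding, and no match says only that these letters are not in this window.

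RNA polymerase I, which makes the ribosomal RNA precursor, was represented by its catalytic core subunits POLR1A and POLR1B, and both fell in CL1-5. POLR1B read 8.74, 9.66 and 9.53 in CL1-5 with the field and 9.04, 10.04 and 9.59 in CL1-5 without it, against 10.49, 10.83 and 10.79 in CL1-0 with the field and 10.44, 10.60 and 10.70 in CL1-0 without it. No CL1-5 array reached a CL1-0 array, and replicate 1 was the lowest of CL1-5. The difference was −1.21 ± 0.21 (adjusted p = 0.000837). A pair of further POLR1B probe sets gave −1.46 and −1.05, and another gave −0.04.

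POLR1A, the largest subunit, read 8.02, 8.44 and 8.74 in CL1-5 with the field and 7.90, 8.62 and 8.53 in CL1-5 without it, against 9.25, 8.79 and 9.54 in CL1-0 with the field and 8.74, 9.24 and 9.41 in CL1-0 without it. The lines came close, with the lowest CL1-0 array just above the highest CL1-5 array. The difference was −0.79 ± 0.22 (adjusted p = 0.0149, and 0.0876 with same-numbered arrays averaged). TCOF1 (treacle), a nucleolar protein needed for ribosomal RNA transcription, read 9.67, 9.30 and 9.04 in CL1-5 with the field and 10.11, 9.31 and 9.69 in CL1-5 without it, against 10.97, 10.02 and 9.81 in CL1-0 with the field and 11.22, 10.05 and 9.59 in CL1-0 without it. Replicate 1 was high in all 4 groups and the lines overlap. Its difference of −0.76 ± 0.30 had an adjusted p of 0.0738, and of 0.00136 with the replicate block.

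Among nucleolar proteins the lines split by gene. LYAR, a nucleolar zinc finger protein that takes part in ribosomal RNA processing, showed the largest difference of the 32. It read 10.49, 10.57 and 10.22 in CL1-5 with the field and 10.19, 10.96 and 10.69 in CL1-5 without it, against 12.11, 12.49 and 12.02 in CL1-0 with the field and 12.31, 12.36 and 11.94 in CL1-0 without it. A gap of about 1 log2 unit separated the lines on every array, and the difference was −1.69 ± 0.17 (adjusted p = 1.04e-05). Its further probe set gave −1.54.

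NOLC1, a chaperone of snoRNPs, read 11.54, 12.31 and 11.92 in CL1-5 with the field and 11.26, 12.59 and 12.03 in CL1-5 without it, against 12.89, 13.26 and 13.17 in CL1-0 with the field and 12.89, 12.84 and 13.13 in CL1-0 without it. The lines did not overlap, and replicate 1 was the lowest in both CL1-5 groups. The difference was −1.09 ± 0.21 (adjusted p = 0.00196), and 2 further probe sets gave −0.94 and −0.79. PA2G4, a growth-regulating protein of nucleolus and ribosome, read 12.04, 12.01 and 11.59 in CL1-5 with the field and 12.11, 11.99 and 11.93 in CL1-5 without it, against 13.11, 12.71 and 12.19 in CL1-0 with the field and 13.27, 12.84 and 12.38 in CL1-0 without it. In CL1-0 replicate 1 was the highest and replicate 3 the lowest, with and without the field, still above all CL1-5 arrays. The difference was −0.80 ± 0.19 (adjusted p = 0.00628, and 0.0656 with same-numbered arrays averaged), and a further probe set gave −1.55.

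DDX21, an RNA helicase that acts in ribosomal RNA transcription and processing, had a lowest, median and highest value of 13.23, 13.53 and 13.73 in CL1-5, against 13.85, 13.95 and 14.21 in CL1-0. The ranges did not overlap, and its difference of −0.48 ± 0.12 (adjusted p = 0.00907, and 0.0716 with same-numbered arrays averaged) was among the smaller ones called. The abundant nucleolar proteins nucleolin and nucleophosmin were not called. NCL spanned 14.05 to 14.32 in CL1-5 and 14.09 to 14.37 in CL1-0, a difference of −0.04 with a 95% interval of −0.25 to 0.17. NPM1 spanned 14.85 to 15.16 in CL1-5 and 14.97 to 15.32 in CL1-0, a difference of −0.14 with an interval of −0.34 to 0.07. Its 2 further probe sets gave 0.06 and 0.14.

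The box C/D snoRNPs, which guide methylation of ribosomal RNA, showed a lower level in 1 of 3 proteins, where 17.0% of all genes were called lower. RRP9, a protein specific to the U3 particle that directs the early cuts, read 8.42, 9.59 and 9.03 in CL1-5 with the field and 8.82, 10.34 and 9.53 in CL1-5 without it, against 10.17, 10.33 and 9.93 in CL1-0 with the field and 10.37, 9.97 and 9.86 in CL1-0 without it. Replicate 2 of CL1-5 without the field lay among the CL1-0 arrays and replicate 1 lay far below. The difference of −0.82 ± 0.27 (adjusted p = 0.0355) was −0.40 without the replicate 1 arrays (adjusted p = 0.14), and the adjusted p was 0.158 with same-numbered arrays averaged. The methyltransferase FBL gave 0.22 (95% interval −0.12 to 0.56) and the core protein NOP58 gave −0.01 (−0.38 to 0.35), and neither was called.

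The 5 factors of small subunit processing all had values below 0, and 3 passed the test, where 17.0% of all genes were called lower. NOB1, the endonuclease that makes the final cut of the small subunit RNA, read 12.43, 11.81 and 11.75 in CL1-5 with the field and 12.15, 11.98 and 11.82 in CL1-5 without it, against 13.17, 12.54 and 12.70 in CL1-0 with the field and 13.27, 12.89 and 12.74 in CL1-0 without it. The lines did not overlap, and replicate 1 was the highest of each group. The difference was −0.90 ± 0.17 (adjusted p = 0.00152).

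WDR43, part of the processome that assembles on the nascent transcript, read 9.08, 10.34 and 10.09 in CL1-5 with the field and 9.22, 10.67 and 10.49 in CL1-5 without it, against 10.46, 11.35 and 11.22 in CL1-0 with the field and 10.52, 10.95 and 10.91 in CL1-0 without it. Replicate 1 was the lowest in all 4 groups, and the lines overlap between replicates but not within any same-numbered pair. The difference was −0.92 ± 0.30 (adjusted p = 0.0325, and 0.15 with same-numbered arrays averaged). UTP20, a scaffold of the same processome, spanned 9.05 to 9.28 in CL1-5 with the field and 9.52 to 9.53 in CL1-5 without it, against 9.78 to 10.03 in CL1-0 with the field and 9.67 to 10.40 in CL1-0 without it. The ranges did not overlap between the lines, and the difference was −0.57 ± 0.16 (adjusted p = 0.0142, and 0.113 with same-numbered arrays averaged).

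RRP12, which in yeast acts in export of the subunit precursors, read 8.96, 7.94 and 7.89 in CL1-5 with the field and 8.72, 8.86 and 8.26 in CL1-5 without it, against 10.65, 9.0 and 8.64 in CL1-0 with the field and 10.68, 8.81 and 9.09 in CL1-0 without it. Replicate 1 of CL1-0 stood well above the rest, and without it the lines still overlap. The difference of −1.04 ± 0.40 had an adjusted p of 0.0698, and of 0.00215 with the replicate block. BYSL (bystin), a factor of late small subunit maturation, gave −0.40 ± 0.21 (adjusted p = 0.180, and 0.0162 with the block), with a lowest, median and highest value of 10.71, 11.09 and 11.33 in CL1-5 against 11.04, 11.30 and 12.06 in CL1-0.

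Of 9 factors of large subunit processing 4 fell in CL1-5, where 17.0% of all genes were called lower. NOP2, a methyltransferase of the large subunit RNA long known as a proliferation antigen, read 10.83, 10.41 and 10.02 in CL1-5 with the field and 10.46, 10.54 and 10.33 in CL1-5 without it, against 11.58, 11.54 and 11.35 in CL1-0 with the field and 11.78, 11.21 and 11.48 in CL1-0 without it. The lines did not overlap, and the difference was −1.06 ± 0.16 (adjusted p = 0.000359). It kept its call in each line comparison, with and without the field.

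MRTO4, an assembly factor related to the ribosomal stalk protein P0, read 10.73, 11.03 and 10.64 in CL1-5 with the field and 10.26, 11.10 and 10.95 in CL1-5 without it, against 11.36, 11.90 and 11.48 in CL1-0 with the field and 11.72, 11.72 and 11.57 in CL1-0 without it. Again no CL1-5 array reached a CL1-0 array, and the difference was −0.84 ± 0.17 (adjusted p = 0.00259). NOP16, a nucleolar protein of the large subunit precursor, read 11.90, 12.01 and 11.60 in CL1-5 with the field and 11.33, 12.28 and 11.73 in CL1-5 without it, against 12.54, 12.95 and 12.40 in CL1-0 with the field and 12.81, 12.42 and 12.23 in CL1-0 without it. Only replicate 2 of CL1-5 without the field reached into the CL1-0 range. The difference was −0.75 ± 0.18 (adjusted p = 0.00789).

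WDR12 and PES1, which work in 1 complex with BOP1, did not move alike. WDR12 had a lowest, median and highest value of 11.55, 11.84 and 11.97 in CL1-5, against 11.999, 12.19 and 12.48 in CL1-0, a difference of −0.41 ± 0.14 (adjusted p = 0.0394, and 0.185 with same-numbered arrays averaged). PES1 spanned 11.25 to 12.13 in CL1-5 and 11.01 to 12.18 in CL1-0, a difference of 0.09 (95% interval −0.46 to 0.64), and the contrast between the 2 genes was not tested. RRP1B, a nucleolar protein of late large subunit processing, gave −0.45 ± 0.32 (adjusted p = 0.332, and 0.0211 with the block). The assembly factors NIP7, WDR74 and RRS1 gave −0.47, −0.27 and 0.29 and were not called in either fit, and a further WDR74 probe set gave −0.71.

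**Figure D3:**
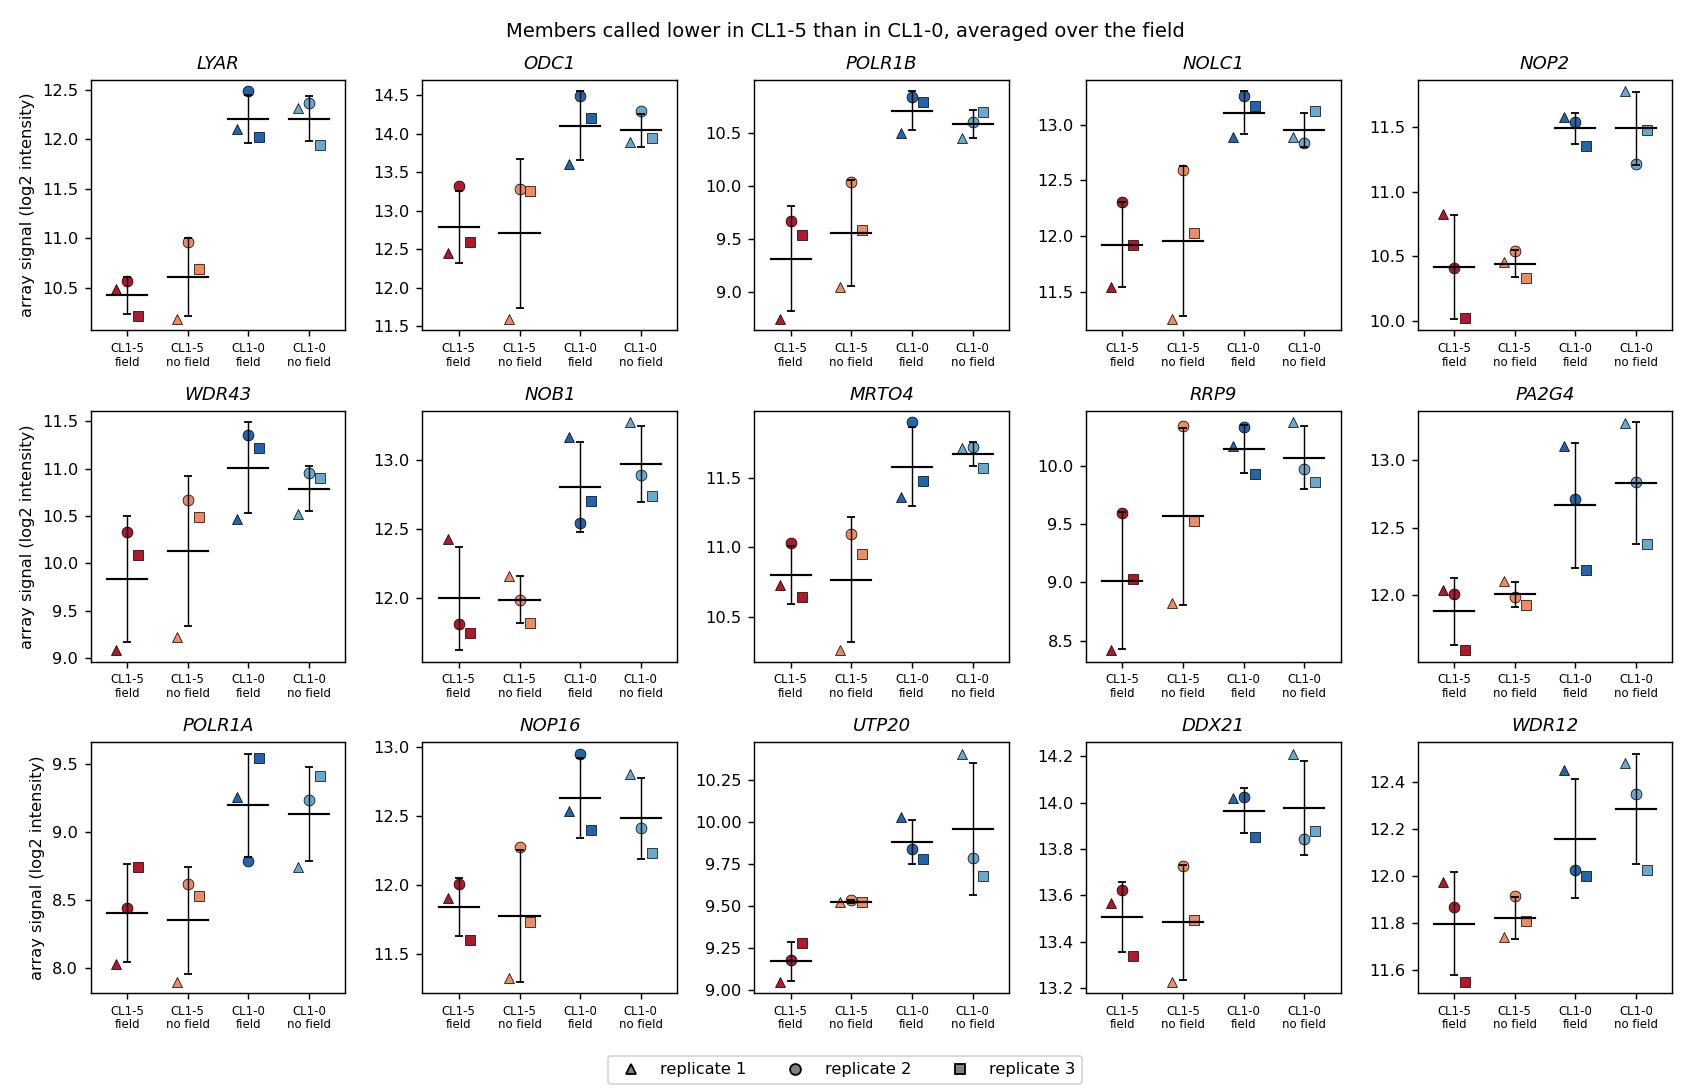
Log2 array signal of the 15 genes called lower in CL1-5 on each of the 12 arrays, with the group mean (line), the SD over 3 arrays (bar) and the replicate number as the symbol; each panel has its own axis, which does not start at 0. For 12 of the 15 the CL1-5 arrays all lie below the CL1-0 arrays, the exceptions being WDR43, RRP9 and NOP16.

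Of the enzymes of polyamine and nucleotide synthesis, ODC1 fell in CL1-5. This enzyme, ornithine decarboxylase, makes the first polyamine and is a textbook MYC target. It read 12.45, 13.32 and 12.59 in CL1-5 with the field and 11.59, 13.28 and 13.25 in CL1-5 without it, against 13.61, 14.49 and 14.21 in CL1-0 with the field and 13.89, 14.29 and 13.94 in CL1-0 without it. The lines did not overlap, replicate 1 was the lowest of each group, and the difference was −1.33 ± 0.29 (adjusted p = 0.00421).

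PPAT, the enzyme of the committed step of purine synthesis, read 10.48, 8.68 and 8.72 in CL1-5 with the field and 10.31, 9.07 and 9.07 in CL1-5 without it, against 11.17, 10.04 and 9.93 in CL1-0 with the field and 11.38, 10.09 and 10.11 in CL1-0 without it. Replicate 1 was the highest of each group, and without those arrays the lines do not overlap. The difference of −1.06 ± 0.40 had an adjusted p of 0.0607, of 8.83e-06 with the replicate block and of 3.6e-05 without the replicate 1 arrays. A further PPAT probe set gave −1.75 and a dim one 0.03. CAD, which starts pyrimidine synthesis, gave −0.22 (95% interval −0.74 to 0.30), and IMPDH2, which leads to guanine nucleotides, gave 0.00 (−0.25 to 0.25). Neither was called.

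The line difference was present with and without the field. With the field 8 of the 32 genes were called lower and 1 higher, where 9.63% and 9.81% of all genes were, and without it 7 were lower and 1 higher, against 8.93% and 9.03%. The block raised these counts to 19 lower and 2 higher (20.8% and 17.3% of all genes) and to 15 lower and 2 higher (18.8% and 16.7%). MAX was the gene called higher both times, and LYAR, NOP2, POLR1B, NOLC1, NOB1, MRTO4 and ODC1 were lower both times, joined by UTP20 with the field. In every alternative run LYAR and NOP2 kept both calls. ODC1 lost both with arrays centred on their median, without a filter and without the variance trend (adjusted p = 0.0502 to 0.069 in limma). MAX, NOLC1 and MRTO4 lost both with the mean of each gene's probe sets (0.203 and 0.195 for MAX with and without the field). MRTO4 also lost both with only the groups compared (0.0673 with and 0.0594 without the field). ODC1 and MRTO4 also lost both when any single array of CL1-0 without the field was left out (0.0514 to 0.134). The medians of the 32 were −0.75 with and −0.48 without the field, against −0.08 and −0.03 over all genes.

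Within same-numbered pairs the median difference of the 32 genes was −0.70, −0.53 and −0.51 for replicates 1 to 3 with the field, and −0.87, −0.13 and −0.26 without it. In each of the 6 pairs more than 19 of the 32 were lower in CL1-5, from 20 in replicate 2 without the field to 28 in replicate 1 without it. Over all genes 51.1% to 53.6% were lower in these pairs, with medians from −0.08 to −0.02. Lower in all 6 pairs were 16 genes (50% of the 32, against 23.8% of all genes), which are the 15 called lower except RRP9, with PPAT and NPM1. Higher in all 6 were MAX, MYC and FBL (9.38%, against 20.0% of all genes). A list of 14 proliferation genes had pair medians of −0.33, −0.14 and −0.53 with the field and −0.49, −0.27 and 0.05 without it. Its averaged median was −0.30, with 1 gene called higher (MCM3) and 1 lower (TYMS), where 15.3% and 17.0% of all genes were. With the replicate block 8 of the 14 were called lower and 1 higher, where 27.1% and 23.2% of all genes were. The part of a difference in proliferation in the line difference was not tested.

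Other genes of the same machinery, listed by role and with the 32 left out, were counted in the same way. These lists too were chosen with earlier results of these data known, so their counts are no independent support. Of 43 tested genes of large subunit assembly 14 were lower and 2 higher in CL1-5 averaged over the field (median −0.40), led by the nucleolar factors URB1 (−1.42 ± 0.14), MAK16 (−1.30 ± 0.18) and NOC3L (−0.90 ± 0.12). Of 35 genes of the small subunit processome and its modification 9 were lower and 2 higher (median −0.26), among them the ribosomal RNA methyltransferases BUD23 (−1.09 ± 0.12) and EMG1 (−0.94 ± 0.13) and the processome protein WDR75 (−0.81 ± 0.16). Read against the 17.0% of all genes called lower, these are 32.6% and 25.7%. With the replicate block 23 of the 43 were lower and 7 higher, and 15 of the 35 lower and 3 higher, where 27.1% and 23.2% of all genes were.

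RNA polymerase I was mixed. Of its 13 further genes 4 were lower and 3 higher (median −0.21), with the subunits POLR1F at −1.71 ± 0.26 and POLR1D at −0.66 ± 0.10 and the subunit POLR1H at 0.39 ± 0.11. Of 12 genes of snoRNP core and assembly none was called (median −0.03), and 1 had an unadjusted p below 0.05. In late small subunit maturation 1 of 7 was lower (RIOK2, a kinase, −0.54 ± 0.15). Nucleotide synthesis had 4 of 16 lower and none higher (median −0.31), led by PRPS1, which makes the shared precursor phosphoribosyl pyrophosphate (−1.67 ± 0.28). With the block the lower calls were 6 for RNA polymerase I, 3 for snoRNP core and assembly, 3 for late small subunit maturation and 7 for nucleotide synthesis, and the higher calls were 3, 0, 1 and 0. Over all genes 17.0% were called lower and 15.3% higher, and with the block 27.1% and 23.2%. Without the block 30.8% of the RNA polymerase I list were lower, 14.3% of late small subunit maturation and 25.0% of nucleotide synthesis. These lists are described by their counts and medians, with no test of the list.

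In the 9 further polyamine genes 3 were higher and 1 lower (median 0.05). Spermine oxidase, SMOX, which breaks polyamines down, was at 1.69 ± 0.21, and OAZ2, an antizyme that blocks ornithine decarboxylase, at 0.61 ± 0.12, while spermidine synthase, SRM, was at −1.07 ± 0.17. Of 12 tested MYC network genes 1 was lower, MLXIPL (−2.97 ± 0.64), whose mean levels of 3.04 to 6.55 are near or below the middle of the arrays, where log2 values are least certain. The MYC antagonist MXI1 gave 0.77 ± 0.40 (adjusted p = 0.174, and 0.00126 with the block). Called lower without the block were thus 11.1% of the polyamine and 8.33% of the MYC network genes, below the 17.0% of all genes (15.3% higher). With the block 4 polyamine genes were higher and 3 lower, and of the MYC network genes 1 was higher and 2 lower. Over all genes the block gave 27.1% lower and 23.2% higher.

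**Figure D4:**
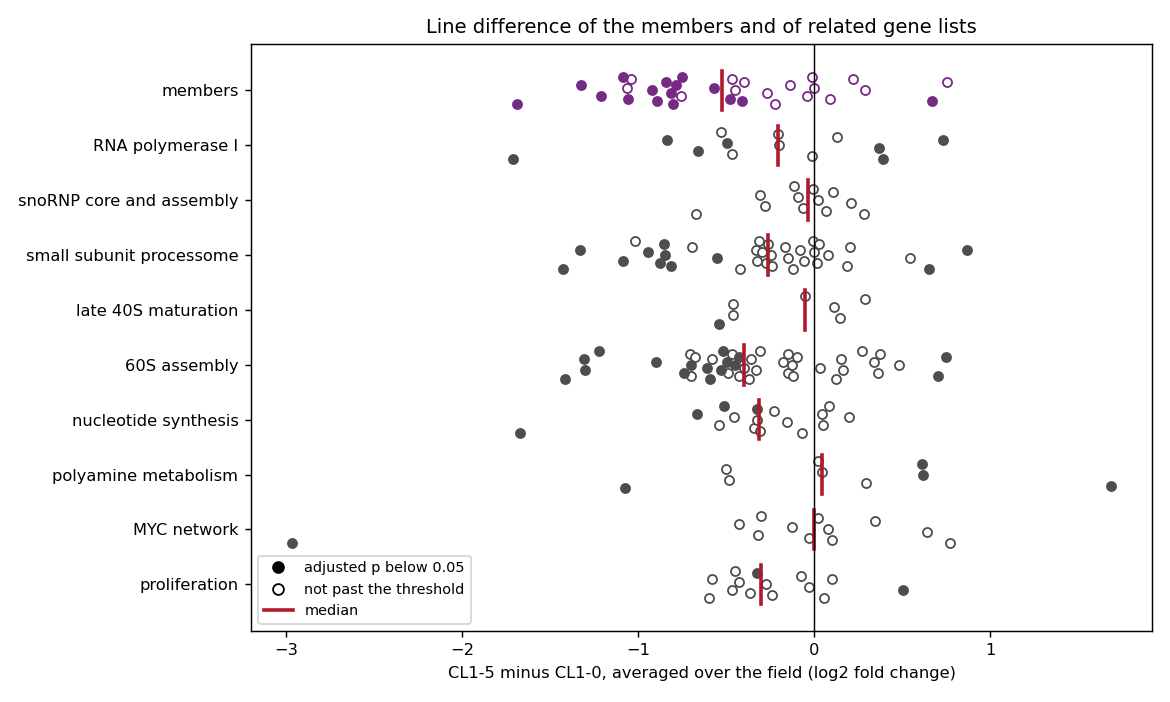
Log2 fold change of CL1-5 minus CL1-0, averaged over the field, for the 32 measured genes (top) and for other genes of related roles that are not among them, with the median of each list as a bar and genes past an adjusted p of 0.05 filled. The medians run from −0.52 for the 32 genes over −0.40 for large subunit assembly to 0.05 for polyamine metabolism.

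No response to the field passed the test in these genes after 2 h. In CL1-5, in CL1-0, averaged over the lines, and in the difference of the response between the lines, 0 of the 32 passed the adjusted threshold in limma, without or with the replicate block, and neither did any of the 13882 genes (0%). At an unadjusted p below 0.05 without the block there were 0 of the 32 in CL1-5 and 0 in CL1-0, where 1.86% and 0.958% of all genes lay. The changes with field minus without field ran from −0.55 to 0.36 in CL1-5 and from −0.18 to 0.24 in CL1-0. The 95% intervals given here are from the fit without a block. They stayed within 1 log2 unit on either side of 0 for 24 of 32 genes in CL1-5 and 26 in CL1-0. At the widest they reached from −1.60 to 1.85 and from −1.38 to 1.62, so in that fit a change of 2-fold was not excluded for the others. That fit counts the deviation shared by same-numbered arrays as error, so its intervals can be wider than those of a blocked fit.

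The pairs do not show a shared shift. The median change of the 32 genes was 0.18, −0.11 and −0.15 in replicates 1 to 3 of CL1-5 and −0.16, 0.18 and 0.08 in CL1-0. With the field, 11 of the 32 had a value above 0 in CL1-5 and 20 in CL1-0, where 48.9% and 52.5% of all genes did. MYC gave 0.36 ± 0.68 (SE without a block) in CL1-5, with 0.87, −0.0014 and 0.21 in replicates 1 to 3, and 0.13 ± 0.68 in CL1-0. MAX gave 0.09 ± 0.15 and 0.07 ± 0.15.

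UTP20 was the only one of the 32 whose CL1-5 arrays with the field (9.05 to 9.28) did not overlap with those without it (9.52 to 9.53), where 2.56% of all genes were lower and 3.10% higher in this way. The change was −0.36 ± 0.22 (adjusted p = 0.9996). RRP9 gave −0.55 ± 0.38 in CL1-5, with −0.41, −0.75 and −0.50 in the 3 pairs. With a replicate block within each line, 4 of the 32 had an unadjusted p below 0.05 in CL1-5 (RRP9, UTP20 and TCOF1 below 0 and MYC above) and 0 in CL1-0, where 10.7% and 3.36% of all genes did, and 0 passed after adjustment.

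**Figure D5:**
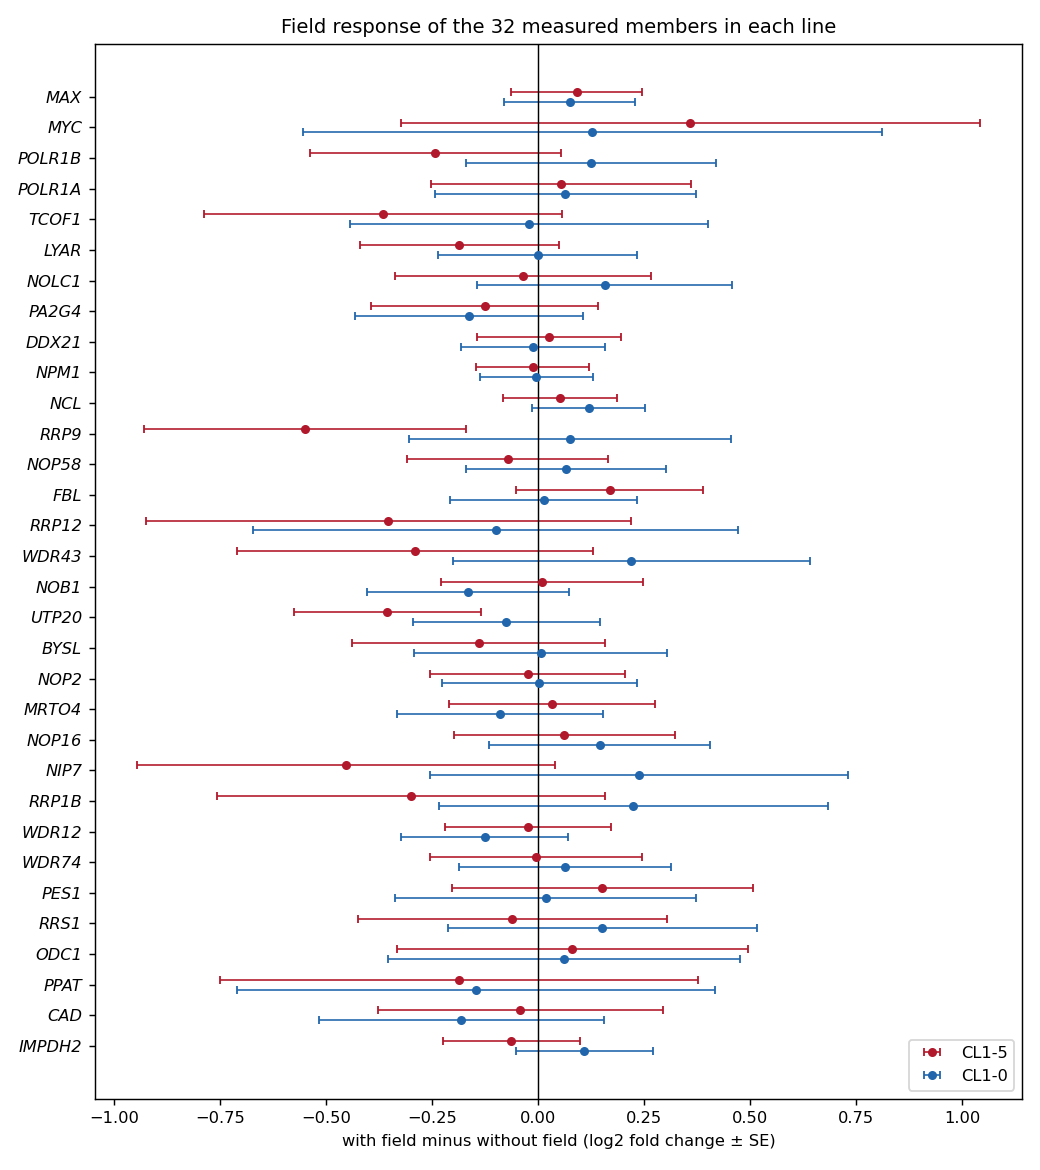
Log2 fold change with field minus without field for the 32 measured genes, with its SE, in CL1-5 (red) and CL1-0 (blue), in the order of the plot of line differences. All values lie between −0.55 and 0.36 and none passed an adjusted p of 0.05.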

How the data were processed

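The authors deposited linear signal intensities of 54675 probe sets on 12 arrays, made with MAS5, per the submitters' processing notes; the sources used here give neither its version nor its detection calls. Intensity values under 1 (3691) were set to 1 and taken to log2 from the deposited values, with no further scaling. Probe sets above the array median on at least 3 arrays were kept, and each gene was taken by its probe set of 1 symbol with the highest mean (platform annotation). Of all probe sets 41097 carry 1 symbol. In R 4.3.3 (data.table, version 1.17.8), limma 3.58.1 fitted 4 group means to 12 arrays and tested their differences with trended eBayes moderation, on 8 residual degrees of freedom, with Benjamini-Hochberg adjustment over 13882 genes at 0.05. The median SE of a comparison of 2 groups was 0.367; precision is limited by how few arrays there are. Figures were drawn with Python 3.11.15, pandas 2.3.3 and matplotlib 3.10.9. The steps were tested on simulated data.

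The genes and lists were chosen with earlier results of these data known. All 36 may be named; values on every array are given for MAX and the 16 genes with the largest averaged line difference among those called without or with the replicate block, and of other lists up to 3 genes with the smallest p. Replicate numbers were checked as pairs. After group means were removed, the correlation between same-numbered arrays with and without the field was 0.551, 0.423 and 0.187 for CL1-5, 0.609, 0.346 and 0.363 for CL1-0, and 0.189 to 0.471 across the lines. For replicate 3 a differently numbered array correlated more in CL1-5 (0.23), and also across the lines without the field (0.227 against 0.189). The labels do not state pairing. Alternatives were quantile normalization, median centring, a floor at the array median, no and a stricter filter, the mean of probe sets, no trend, only the groups compared, the replicate and the spike-in block, only arrays with spike-in signal, and each array left out. Averaging same-numbered arrays was added after seeing the data.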

Additional observations from a re-analysis of the deposited data

Results flagged for a closer look

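On the probe set used, the response of POLR1B to the field ran in opposite directions in the lines. Its further probe sets did not all do so. The brightest of them gave −0.31 in CL1-5 and −0.17 in CL1-0, the next −0.11 and −0.01, and the dimmest −0.58 and 0.06. With the field minus without it, the same-numbered pairs gave −0.30, −0.37 and −0.06 in CL1-5 and 0.05, 0.23 and 0.09 in CL1-0, so that all 3 pairs of each line moved its own way. The difference of the responses was −0.37 ± 0.42 (SE), with an adjusted p of 0.999869 in limma over all genes, so it did not pass the test. The same opposite pattern was seen in 642 of 13882 genes (4.62%) and in 1 of the 32 genes measured here (3.12%). The cause was not tested.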

How the results depend on the processing

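No value changed sign past the test in any setting. In the averaged comparison of the lines the 15 lower calls became 8 with same-numbered arrays averaged, while the 1 higher call became 2 with the replicate block, 2 with the spike-in block, 2 with same-numbered arrays averaged and the block, and 3 on arrays with spike-in signal only (MAX, MYC and RRS1). With the field, the 8 lower calls became 5 with arrays centred on their median, without a filter, without the trend and with only the groups compared. They became 10 with quantile normalization and with the mean of probe sets. With the replicate block, the spike-in block and only the spike-in arrays they became 19, 18 and 15. The 1 higher call became 0 with the mean of probe sets and with only the groups compared, and 2 with either block. Without the field, the 7 lower calls became 3 with only the groups compared and 5 without a filter and without the trend. They became 15 with the replicate block, 16 with the spike-in block and 9 on the spike-in arrays. In this comparison the 1 higher call became 0 with the mean of probe sets, 2 with either block and 3 on the spike-in arrays. The cause of these changes was not tested, other than that fewer samples enter with only the groups compared or only the spike-in arrays.

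Leaving out 1 array at a time gave 12 to 15 lower calls averaged over the field, 4 to 11 with it and 2 to 9 without it, and 1 higher call each time. The lowest count of 2 came without replicate 1 of CL1-0 without the field. In the averaged comparison RRP9, WDR43 and WDR12 lost their calls in 8, 6 and 9 of these 12 fits. WDR12 also lost it without a filter (adjusted p = 0.0531), with the mean of probe sets (0.0862) and without the trend (0.0636). With the field or without it, single named genes lost calls too: ODC1, MRTO4, NOLC1 and NOB1 without the trend (0.0562 to 0.069), ODC1, MRTO4, NOLC1 and UTP20 without a filter (0.0508 to 0.0587), and MAX, MRTO4, NOLC1 and POLR1B with the mean of probe sets (0.0522 to 0.203). The field comparisons had 0 of the 32 genes called in every setting run. Centring on the median moved the all-gene median without the field from −0.03 to −0.11. Among single genes over all comparisons, 120 of the results under an alternative lost a call and 112 gained one, with 5016 on the same side of the threshold. The 5016 include all results of the field comparisons, so every lost or gained call fell in the comparisons of the lines.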
